A study of Rattus norvegicus with 18 samples.

Results

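The claudins are a family of small membrane proteins, and 9 of their genes were followed here across cultures of rat extraembryonic endoderm precursor cells: Cldn1, Cldn2, Cldn3, Cldn4, Cldn6, Cldn7, Cldn9, Cldn12 and Cldn23. They were chosen by name, as the rows of the count files that carry these symbols, and make up 9 of 28695 rows. The files hold 28 symbols that begin with Cldn (related Cldnd symbols left out), so 19 other claudins were measured in the same libraries. A total of 6 of the 9 genes passed the filter on low counts of the main test, and the other 3 (Cldn1, Cldn2 and Cldn9) are given by their counts.

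Claudins sit at the tight junction, the seal that closes the space between neighbouring epithelial cells near their apical side. Strands built by claudins of facing cells set which ions and how much water pass between the cells, and the mix of claudins differs between epithelia. Some claudins mainly seal, such as Cldn1 and Cldn3, while others form channels, such as Cldn2, which passes cations and water. Tight junctions appear early in the embryo, where epithelia that enclose a fluid-filled cavity, such as trophectoderm and endoderm, carry them.

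The cells, called rat XENP in the labels, were derived from blastocysts of the WKY rat strain and were labelled female. They were compared in 6 groups of 3 libraries, at passages 32 to 51, and no group carried a genetic change named in the labels. Normal cells had the routine culture medium. There were 3 kinds of vacuolated cells, made with 0.5 µM CHIR99021, an inhibitor of the kinase GSK3 that activates Wnt signalling, with CHIR99021 followed by a sort, and with 14% BCS, which the labels do not spell out. The labels do not say by what the cells were sorted. Vesicles formed under CHIR99021 in serum or in serum-free conditions. The stated vesicle medium was N2B27 with 3 µM CHIR99021 and murine LIF at 10 ng/ml, and this was read as the serum-free condition; which CHIR99021 dose the vesicles in serum received is therefore uncertain. Samples were prepared independently according to the labels, which do not say whether each was a separate derivation, so every p below measures the spread between these samples, which may be technical.

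Libraries held 4.05 to 12.1 M counts on the strand used, and 37.6 to 61.1% of these fell on a pair of genes with clone-style names. That share was 37.6 to 43.6% in normal cells and 51.0 to 61.1% in the vesicles. Mitochondrially encoded genes took 3.13 to 3.38% of the other counts in normal cells, 6.76 to 8.91% in the sorted group and 7.11 to 9.43% over both kinds of vesicle. The labelled cell type was checked against 13 markers of extraembryonic endoderm, among them Gata4, Gata6, Sox17 and Pdgfra, and every one of them had counts in each of the 6 groups. Their summed level was 5315 to 5614 CPM in normal cells, 3055 to 3206 CPM in serum vesicles and 3619 to 4006 CPM in serum-free vesicles. Sparc, Lamb1 and Col4a1 made up most of this sum, at means of 1181, 1033 and 1439 CPM in normal cells. Single markers went different ways: Gata6 had means of 80.1 CPM in normal cells, 13.8 in serum and 15.8 in serum-free vesicles. Those of Pdgfra were 197, 244 and 293 CPM in the same order. Against normal cells, 2 of the 13 markers were higher and 8 lower in serum vesicles at an adjusted p under 0.05 (edgeR). In serum-free vesicles 3 were higher and 7 lower. Of all tested genes, 31.7% were higher and 28.8% lower in serum vesicles, and 30.2% and 27.5% in serum-free vesicles. CPM are the counts scaled to a library of one fixed size (per M counts), after scaling of the library sizes by TMM.

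Sequences upstream of the start were available for 5 of the 9 genes, from RefSeq on build GRCr8, which is not the build of the count files (rn6). The 4 windows printed here belong to members that were tested, and each holds the 250 bases before the annotated start, on the strand of the gene. The Cldn6 window lies at chr10:13215558-13215807 on the plus strand, the Cldn7 window at chr10:55188420-55188669 on the plus strand, the Cldn3 window at chr12:27346548-27346797 on the minus strand and the Cldn12 window at chr4:29482060-29482309 on the plus strand. Capitals mark matches to the motifs searched.
Cldn6: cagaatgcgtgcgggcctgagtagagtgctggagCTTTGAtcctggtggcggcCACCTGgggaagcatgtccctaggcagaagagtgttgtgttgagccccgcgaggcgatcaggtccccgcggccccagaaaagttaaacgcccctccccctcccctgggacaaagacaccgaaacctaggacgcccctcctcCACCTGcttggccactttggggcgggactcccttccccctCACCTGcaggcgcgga
Cldn7: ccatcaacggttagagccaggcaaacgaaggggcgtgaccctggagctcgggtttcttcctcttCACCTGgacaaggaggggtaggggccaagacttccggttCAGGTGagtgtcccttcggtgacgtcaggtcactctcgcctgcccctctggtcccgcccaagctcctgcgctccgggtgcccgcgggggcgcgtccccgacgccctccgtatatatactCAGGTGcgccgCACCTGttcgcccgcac
Cldn3: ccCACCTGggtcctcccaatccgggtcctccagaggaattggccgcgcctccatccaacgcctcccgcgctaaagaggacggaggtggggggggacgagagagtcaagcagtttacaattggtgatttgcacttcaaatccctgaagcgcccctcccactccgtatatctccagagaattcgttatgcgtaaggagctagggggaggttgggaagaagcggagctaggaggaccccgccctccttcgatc
Cldn12: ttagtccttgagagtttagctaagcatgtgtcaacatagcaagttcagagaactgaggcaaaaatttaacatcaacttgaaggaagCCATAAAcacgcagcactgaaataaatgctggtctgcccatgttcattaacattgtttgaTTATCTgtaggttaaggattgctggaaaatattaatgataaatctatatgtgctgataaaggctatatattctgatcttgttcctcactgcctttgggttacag
The main motif searched was CAGGTG on either strand, the E-box letters known from the binding of the SNAI and ZEB repressors of epithelial genes. The Cldn7 window held 4 matches, which begin 186, 147, 28 and 17 bases before the start. The Cldn6 window held 3, which begin 197, 56 and 16 bases before the start, and the Cldn3 window held 1. No match stood in the windows of Cldn12 and Cldn1. Over 33360 promoter windows of the same length, 15.9% held at least 1 such match, 0.237% at least 3 and 0.0300% at least 4. A further 5 motifs were searched on both strands, and none of their matches overlapped another. The letters CTTTGA, known from TCF/LEF factors that act in Wnt signalling, stood in 13.9% of all windows and once here, 216 bases before the Cldn6 start. The CDX letters TTTATNG stood in 10.1% of all windows and once here, before Cldn12. The same window held the only match here to AGATAA, the letters of the GATA factors, which stood in 10.3% of all windows. No match was found in the 5 windows for the Grainyhead-like letters AACCNGTT (1.76% of all windows). The same holds for the AP-1 letters TGANTCA (6.35%). A match of letters is a description of the window and shows no binding.

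The claudin that changed in every group set against normal cells was Cldn6, a claudin known from embryonic epithelia. It stood at 18.7, 13.2 and 14.4 CPM in the 3 normal libraries. With CHIR99021 it stood at 70.8, 69.2 and 72.0 CPM, with BCS at 84.6, 79.8 and 95.7 CPM, and in sorted vacuolated cells at 75.4, 91.2 and 102 CPM. Serum vesicles held 216, 171 and 161 CPM and serum-free vesicles 246, 175 and 190 CPM. The 3 levels of normal, vacuolated and vesicle cultures thus did not overlap in any library, while the vesicle groups overlapped each other. Among vacuolated cells, the unsorted CHIR99021 libraries lay below the other 6, and the BCS and sorted groups overlapped.

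Against normal cells, the log2 fold change of Cldn6 was 2.19 (SE 0.17) with CHIR99021, 2.49 with BCS and 2.54 in sorted cells. It was 3.57 (11.8-fold, adjusted p = 2.14e-14, edgeR quasi-likelihood test with Benjamini-Hochberg adjustment) in serum vesicles and 3.72 (13.2-fold, adjusted p = 7.50e-15) in serum-free vesicles. Set directly against the mean of the 3 vacuolated groups, the mean of the vesicle groups was 2.35-fold higher (log2 1.23, SE 0.09, adjusted p = 1.71e-11). The difference between the vesicle media did not pass (log2 0.15 for serum-free against serum, 95% interval -0.15 to 0.45, adjusted p = 0.475), nor did that between CHIR99021 and BCS (log2 -0.29, interval -0.60 to 0.01, adjusted p = 0.200). Sorted against unsorted cells gave log2 0.34 (interval 0.04 to 0.65, adjusted p = 0.134), which passed when the fit held these groups alone (adjusted p = 0.0321). In cultures such as these, a higher level may mean more cells of a type or more RNA per cell, which cannot be told apart.

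**Figure D1:**
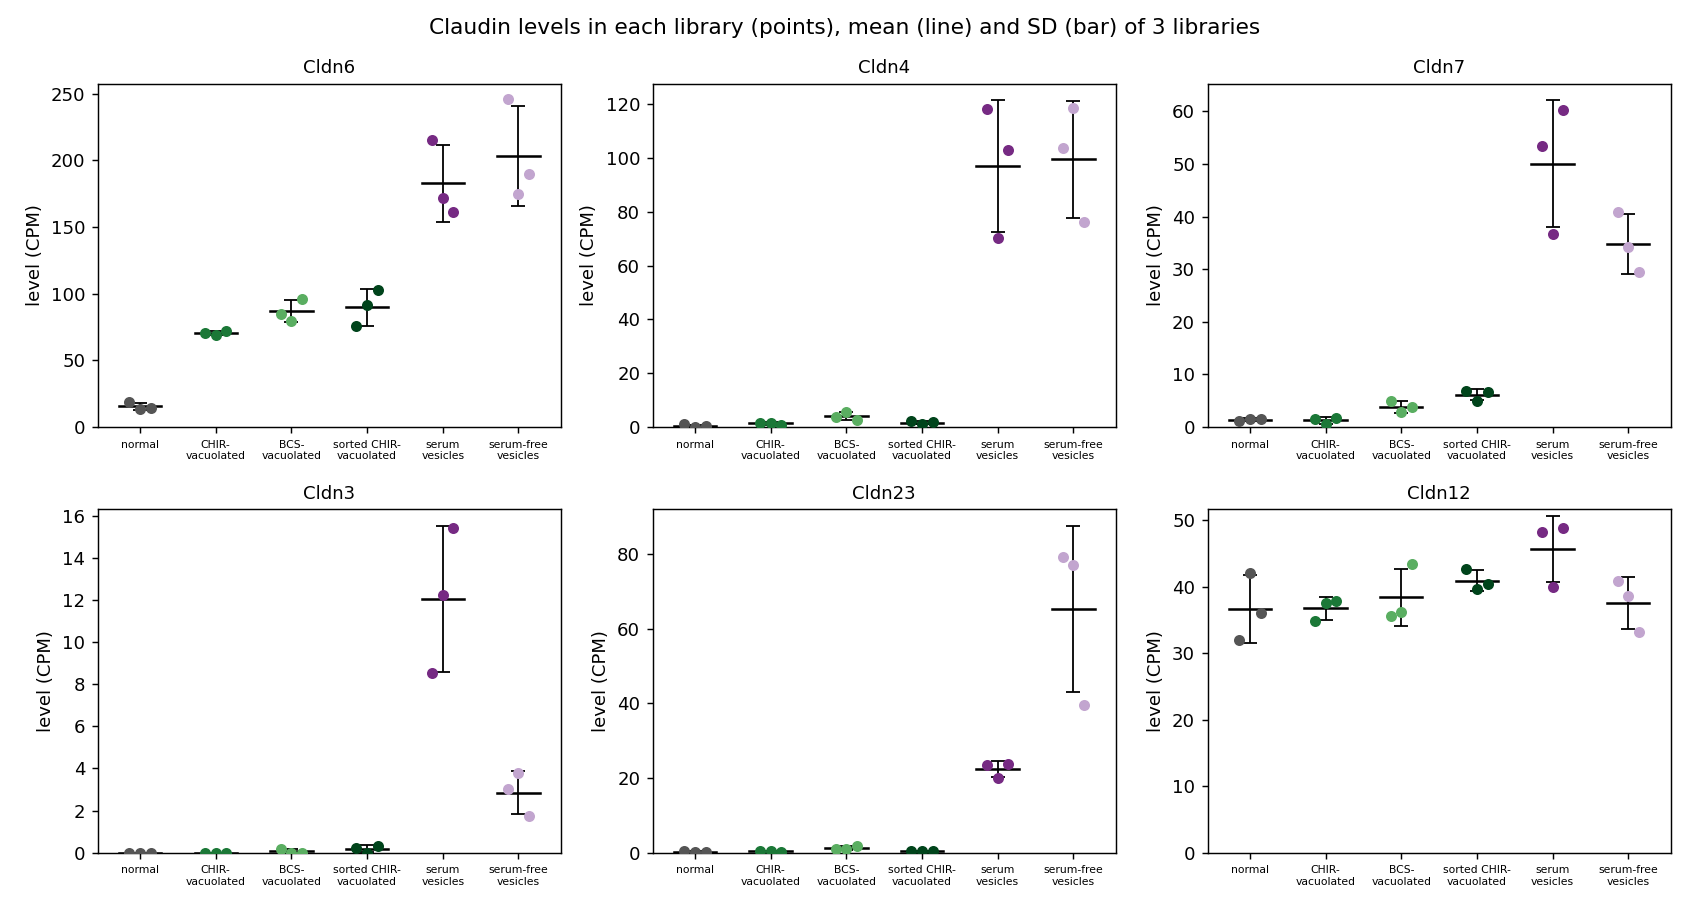
Level of the 6 tested claudins in CPM (scaled counts, linear axis from 0, a scale of its own for each gene) in the 6 groups. Points are the 3 libraries of a group, lines their mean and bars the SD. Cldn6 forms 3 steps from a mean of 15.4 CPM in normal cells to 204 CPM in serum-free vesicles, Cldn4 and Cldn7 are high in the vesicles of both media, Cldn23 is highest in serum-free vesicles, Cldn3 is highest in serum vesicles, and Cldn12 stays between 31.9 and 48.9 CPM.

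Cldn4, a claudin that binds Clostridium perfringens enterotoxin, was nearly without counts in normal cells and stood near 100 CPM in the vesicles. Normal libraries held 5, 0 and 1 counts (0.897, 0 and 0.151 CPM). Vacuolated cells held 1.54, 1.55 and 0.820 CPM with CHIR99021, 3.56, 5.51 and 2.59 CPM with BCS, and 2.07, 1.01 and 1.81 CPM after the sort. Every vesicle library stood far above these, at 118, 70.3 and 103 CPM with serum and at 104, 119 and 76.1 CPM without it, and the vesicle groups overlapped. Cldn4 was 47.9-fold higher in vesicles than in vacuolated cells (log2 5.58, SE 0.19, adjusted p = 1.52e-15, edgeR), and serum-free against serum vesicles gave log2 0.04 (interval -0.44 to 0.52, adjusted p = 0.930).

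Against normal cells, Cldn4 rose by log2 8.06 (SE 0.44, adjusted p = 5.49e-12) in serum vesicles and by log2 8.10 (adjusted p = 4.34e-12) in serum-free vesicles. The size of these changes rests on 1 normal library, since 5 of the 6 normal counts were in replicate 1; without it the log2 values were 9.89 and 9.93. The rise with BCS was log2 3.46 (SE 0.62, adjusted p = 5.63e-04), and log2 5.29 without that library. The smaller rise in sorted vacuolated cells (log2 2.20, 4.58-fold, adjusted p = 0.0262) was log2 4.03 without normal replicate 1, and was lost without normal replicate 2 (adjusted p = 0.102) or 3 (0.120), and without sorted replicate 1 (0.0673) or 3 (0.0705). For unsorted CHIR99021 cells the change was log2 1.85 (adjusted p = 0.172), which passed without normal replicate 1 (log2 3.69, adjusted p = 0.0489) and without the filter on low counts (adjusted p = 0.0251).

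Cldn7, a claudin of the basolateral membrane that binds the adhesion molecule EpCAM, stood at 1.08, 1.54 and 1.51 CPM in normal cells. With CHIR99021 it stood at 1.54, 0.517 and 1.78 CPM, a range that covered that of normal cells (log2 -0.06, interval -0.98 to 0.86, adjusted p = 0.966). It stood at 4.92, 2.75 and 3.76 CPM with BCS and at 6.91, 4.92 and 6.55 CPM after the sort, above every normal and unsorted CHIR99021 library. The vesicles held 53.4, 36.6 and 60.2 CPM with serum and 40.9, 34.2 and 29.5 CPM without it. Cldn7 thus rose 35.7-fold in serum vesicles (log2 5.16, SE 0.30, adjusted p = 5.76e-13) and 24.9-fold in serum-free vesicles (log2 4.64, adjusted p = 4.23e-12), and was 13.3-fold higher in vesicles than in vacuolated cells (log2 3.73, adjusted p = 4.92e-16).

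Among the tested members, Cldn7 was the one that passed between sorted and unsorted cells. It rose 4.41-fold in sorted cells against normal cells (log2 2.14, adjusted p = 5.35e-05) and was 4.59-fold higher in sorted than in unsorted CHIR99021 cells (log2 2.20, SE 0.33, adjusted p = 7.60e-05). The mitochondrially encoded share was also higher in sorted cells (6.76 to 8.91%) than in unsorted ones (2.88 to 4.08%), and its part in this difference was not tested. With BCS the rise against normal cells was 2.68-fold (log2 1.42, adjusted p = 0.00806), which was lost without BCS replicate 1 (adjusted p = 0.0537).

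Cldn23, a claudin known from the epithelium of the gut, was the member that passed as higher in serum-free than in serum vesicles. Normal libraries held 2, 1 and 1 counts, unsorted CHIR99021 libraries 3, 2 and 2, and sorted libraries 3, 4 and 5. BCS libraries held 5, 10 and 14 counts (0.848, 1.10 and 1.81 CPM). Vesicles held 23.6, 20.0 and 23.7 CPM with serum and 79.3, 77.2 and 39.7 CPM without it, so that the lowest serum-free library was above the highest serum library. The difference between the media was 2.91-fold (log2 1.54, SE 0.21, adjusted p = 1.64e-05).

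Against normal cells, Cldn23 rose by log2 6.50 (SE 0.41, adjusted p = 2.23e-12) in serum vesicles and by log2 8.04 (SE 0.38, adjusted p = 1.17e-14) in serum-free vesicles. With BCS it rose 5.22-fold (log2 2.38, adjusted p = 0.00892), a call lost without normal replicate 3 (adjusted p = 0.0514) or BCS replicate 3 (0.0528). With CHIR99021 the values were log2 0.55 unsorted (adjusted p = 0.774) and 0.74 sorted (adjusted p = 0.515). In vesicles it was 66.1-fold higher than in vacuolated cells (log2 6.05, adjusted p = 2.21e-18).

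Cldn3, a sealing claudin and like Cldn4 a receptor of the enterotoxin, went the other way between the vesicle media. It had 0 counts in the 6 libraries of normal and unsorted CHIR99021 cells, 1, 0 and 0 counts with BCS and 2, 0 and 4 counts in sorted cells. Serum vesicles held 56, 88 and 67 counts (8.52, 12.2 and 15.4 CPM), and serum-free vesicles 16, 31 and 15 counts (3.01, 3.76 and 1.75 CPM). All 3 serum libraries were above all 3 serum-free ones, and Cldn3 was 4.23-fold lower in serum-free vesicles (log2 -2.08, SE 0.44, adjusted p = 0.00175).

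With a floor of 3 counts over the 3 normal libraries, Cldn3 was at least 67.6-fold higher in serum vesicles (adjusted p = 2.68e-08) and at least 16.2-fold higher in serum-free vesicles (adjusted p = 1.11e-05) than in normal cells. The 6 counts in sorted cells are at least 1.15-fold above the normal floor (adjusted p = 0.126). Such floors cover counting error only. Vesicles against vacuolated cells passed as well (adjusted p = 1.12e-10), with no exact size since 1 of the vacuolated groups was at 0. Cldn3 reached the level asked by the low-count filter (1.41 CPM) in the 6 vesicle libraries alone, and Cldn23 in these and 1 BCS library. Both thus entered the test through the group where they were high and had to differ, so counts of members that passed are a description and support nothing.

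Cldn12, which lacks the tail motif by which most claudins bind scaffold proteins and is known for passing calcium, was the tested member that did not pass in any of the 9 comparisons. It stood at 31.9, 42.0 and 36.0 CPM in normal cells and at means of 36.7 ± 1.71 CPM in unsorted CHIR99021 cells, 38.4 ± 4.32 CPM in BCS cells and 40.9 ± 1.59 CPM in sorted cells (SD, n = 3 each). Serum vesicles held 48.2, 39.9 and 48.9 CPM and serum-free vesicles 37.6 ± 3.94 CPM, and the range of the normal libraries overlapped that of each other group. The log2 change in unsorted CHIR99021 cells was 0.00 with an interval of -0.28 to 0.29, so that the data are compatible with changes of that size. In serum vesicles it was 0.32 (interval 0.03 to 0.60, adjusted p = 0.0544), which passed without normal replicate 2 (adjusted p = 0.0333) or serum replicate 2 (adjusted p = 0.0237).

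**Figure D2:**
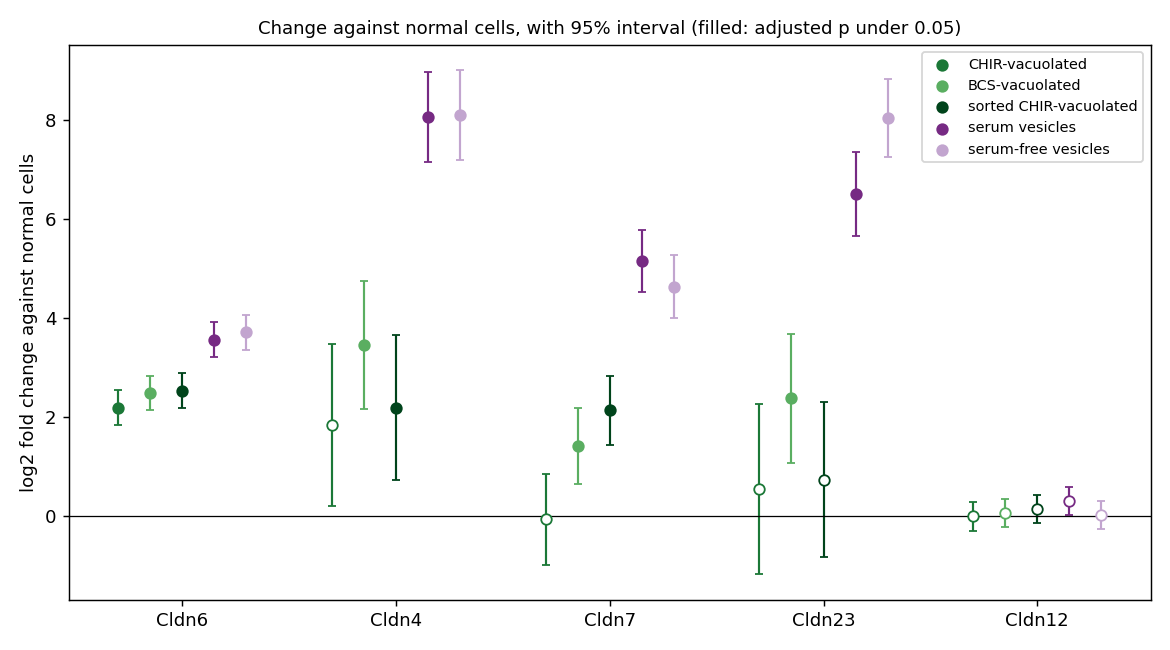
Log2 fold change of 5 claudins against normal cells in the 5 other groups, with 95% intervals from the edgeR fit. Filled points passed an adjusted p under 0.05. Cldn6 has narrow intervals around values of 2.19 to 3.72, Cldn4, Cldn7 and Cldn23 reach 4.64 to 8.10 in the vesicles with wide intervals in vacuolated cells, and Cldn12 lies near 0. Cldn3 is not drawn because it had 0 counts in normal cells.

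The 3 members below the filter had few counts. Cldn1, a sealing claudin best known from skin, had 2 counts, both in serum vesicle replicate 2. Cldn2, the cation channel, had 0 counts in normal cells, 2 with CHIR99021, 5 with BCS and 2 in sorted cells. It had 13, 5 and 1 counts in serum vesicles and 1, 35 and 7 in serum-free vesicles, so that 35 of the 43 serum-free counts came from 1 library. Against the floor of 3 counts in normal cells this is at least 6.09-fold higher in serum and at least 11.3-fold higher in serum-free vesicles, with uneven counts between libraries. Where the filter was left out, Cldn2 was tested and passed in serum (adjusted p = 0.00114, edgeR) and serum-free vesicles (adjusted p = 4.56e-05), and likewise with DESeq2 (0.0115 and 0.00253).

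Cldn9, a close relative of Cldn6 known from the inner ear, had 1 count in normal cells and 0 in the 9 vacuolated libraries. It had 2, 5 and 3 counts in serum vesicles and 0, 2 and 1 in serum-free vesicles. Serum vesicles against normal cells gave a ratio of 9.61 with a 95% counting interval of 1.37 to 417, and serum-free were 4.08-fold below serum vesicles (interval 1.05 to 23.1). In the RefSeq annotation of GRCr8, Cldn6 and Cldn9 are direct neighbours on chromosome 10 with no other listed gene between them. Without the filter, Cldn9 passed for vesicles against vacuolated cells (adjusted p = 0.00355) and did not for serum vesicles against normal cells (adjusted p = 0.197). With the unstranded counts, which include the other strand, the latter passed (adjusted p = 0.0260) and vesicles against vacuolated cells did not (log2 0.07, adjusted p = 0.923).

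**Figure D3:**
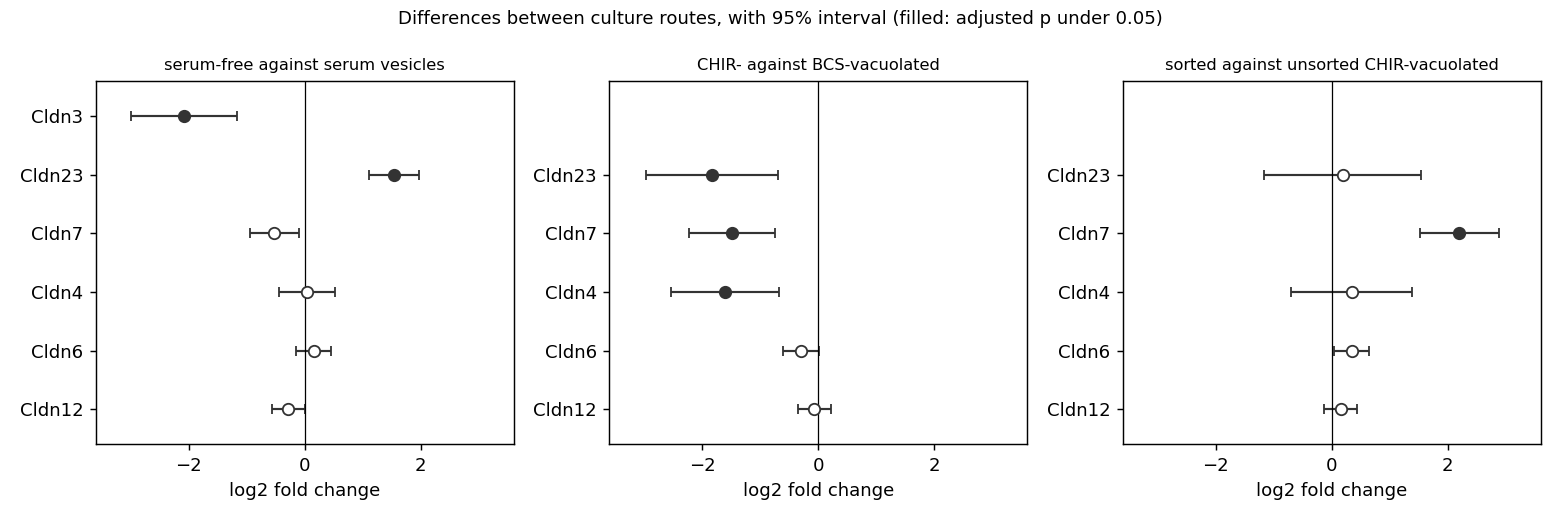
Log2 fold change of the claudins between culture routes and between sorted and unsorted cells, with 95% intervals. Filled points passed an adjusted p under 0.05. Left, serum-free against serum vesicles, where Cldn23 lies to the right of 0 and Cldn3 to the left. Middle, CHIR99021 against BCS, where Cldn4, Cldn7 and Cldn23 lie to the left. Right, sorted against unsorted CHIR99021 cells, where Cldn7 lies to the right. Cldn3 is drawn only for the vesicles, since it had at most 4 counts in a vacuolated library.

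The vacuolated states reached by CHIR99021 and by BCS were set against each other directly. Cldn4, Cldn7 and Cldn23 were lower with CHIR99021 than with BCS, by log2 -1.61 (SE 0.45, adjusted p = 0.0206), -1.48 (2.79-fold lower, adjusted p = 0.00730) and -1.83 (3.56-fold lower, adjusted p = 0.0274). In each of the 3 genes no library of the unsorted CHIR99021 cells reached the lowest BCS library. These calls came from few counts and most were lost when a library was left out. Cldn4 lost it without CHIR99021 replicate 1, 2 or 3 (adjusted p = 0.0536, 0.0550 and 0.0974) and without BCS replicate 1 or 2 (0.0566 and 0.104). Cldn7 lost it without CHIR99021 replicate 2 (0.0536) or BCS replicate 1 (0.0568). Cldn23 lost it without CHIR99021 replicate 1, 2 or 3 (0.0670, 0.0813 and 0.0974) or BCS replicate 3 (0.150). The count of claudins past the threshold was 0 without CHIR99021 replicate 2. The summed extraembryonic endoderm markers stood at 5008 to 5809 CPM with CHIR99021 and at 6808 to 8534 CPM with BCS. Much of these sums was Sparc and Col4a1, at means of 1423 and 1239 CPM with CHIR99021 and of 2082 and 2181 CPM with BCS. The part of these markers in the claudin differences was not tested.

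Between the vesicle media, Cldn7 was lower without serum by log2 -0.52 (interval -0.95 to -0.09), which did not pass (adjusted p = 0.0695). It passed without serum replicate 2 (log2 -0.70, adjusted p = 0.0165) or serum-free replicate 1 (log2 -0.64, adjusted p = 0.0444). Of the 6 tested members, Cldn23 was thus higher and Cldn3 lower without serum, and 4 did not pass. The media may also differ in their CHIR99021 dose, in LIF and in the base medium, and none of these can be told apart from serum.

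Against the share of all 11503 tested genes that passed, the claudin counts read as follows. Unsorted CHIR99021 cells had 1 member higher and 0 lower of 6 tested, where 4.49% of all genes were higher and 3.13% lower. BCS cells had 4 higher and 0 lower (all genes 11.2% and 9.51%), and sorted cells 3 higher and 0 lower (14.4% and 11.5%). Serum vesicles had 5 higher and 0 lower (31.7% and 28.8%), as had serum-free vesicles (30.2% and 27.5%) and vesicles against vacuolated cells (34.2% and 32.3%). Serum-free against serum vesicles had 1 higher and 1 lower (12.9% and 11.5%), sorted against unsorted cells 1 higher and 0 lower (6.69% and 5.05%), and CHIR99021 against BCS 0 higher and 3 lower (5.83% and 7.4%). The comparisons against normal cells share the same 3 normal libraries.

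Of the 19 other claudins, 8 had 0 counts in every library, 9 had counts too low to test (at most 82 in total), and Cldn11 and Cldn18 were tested. Cldn11, known from myelin and from Sertoli cells, moved the other way. It stood at 4.31, 4.03 and 6.51 CPM in normal cells, at 0.701, 1.55 and 0.547 CPM with CHIR99021, and at 0, 0 and 0.461 CPM in serum vesicles. It fell with CHIR99021 (log2 -2.44, adjusted p = 0.00711), in sorted cells (log2 -2.07, adjusted p = 0.00481) and in serum-free vesicles (log2 -3.29, adjusted p = 6.31e-05), while BCS gave log2 -0.77 (adjusted p = 0.288). The fall in serum vesicles (adjusted p = 4.82e-06) has no exact size, since 1 library held its few counts. Cldn18, known from lung and stomach, passed once, lower in vesicles than in vacuolated cells (log2 -1.47, adjusted p = 0.0242), with ranges that overlapped. Its mean was 0.600 CPM in serum and 2.41 CPM in serum-free vesicles. It was 3.67 CPM with CHIR99021, 2.69 CPM with BCS, 4.46 CPM in sorted cells and 2.46 CPM in normal cells.

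The scaffold and partner proteins of the tight junction were taken as a list of 34 genes, of which 31 were tested. Against normal cells, 6 were higher and 0 lower with CHIR99021 (all genes 4.49% and 3.13%), 14 and 0 with BCS (11.2% and 9.51%), and 13 and 0 in sorted cells (14.4% and 11.5%). In serum vesicles 23 were higher and 1 lower (all genes 31.7% and 28.8%), and in serum-free vesicles 20 and 3 (30.2% and 27.5%). Their median log2 change was 0.34, 0.51, 0.49, 0.97 and 1.00 in that order, beside medians of all tested genes between -0.00377 and 0.0642. Ocln, the gene of occludin, stood at 25.9 ± 0.890 CPM in normal cells, 145 ± 6.86 in serum and 207 ± 24.3 in serum-free vesicles (SD, n = 3 each), a rise of 5.59-fold (adjusted p = 5.76e-13) and 7.98-fold (adjusted p = 2.34e-14). Tjp1, which encodes the scaffold ZO-1 that claudin tails bind, rose 3.50-fold in serum vesicles, and Lsr, a protein of the corners where 3 cells meet, rose 4.36-fold in serum-free vesicles. Among the 3 genes lower in serum-free vesicles, Jam3 had the smallest adjusted p (log2 -4.54, adjusted p = 7.22e-10, edgeR). It stood at 13.8 ± 0.398 CPM in normal cells.

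Against BCS, 0 genes of the list were higher and 7 of 31 lower with CHIR99021 (all genes 5.83% and 7.4%), with a list median of log2 -0.20. Those lower included Ocln (log2 -1.14, adjusted p = 6.84e-06) and Cgn, the gene of cingulin (log2 -1.06, adjusted p = 6.73e-04). Serum-free against serum vesicles had 5 higher and 7 lower (all genes 12.9% and 11.5%), with a list median of log2 -0.08, and the share of higher genes was near that of all genes. Jam3, an adhesion molecule of the junction, stood at 9.98 ± 2.93 CPM with serum and at 0.511 ± 0.525 CPM without it (log2 -4.08, adjusted p = 4.54e-07). Sorted against unsorted cells had 3 higher and 1 lower, near the 6.69% and 5.05% of all genes, with F11r, the gene of JAM-A, at 1.81-fold (adjusted p = 2.09e-04). Vesicles against vacuolated cells had 20 higher and 6 lower (all genes 34.2% and 32.3%).

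**Figure D4:**
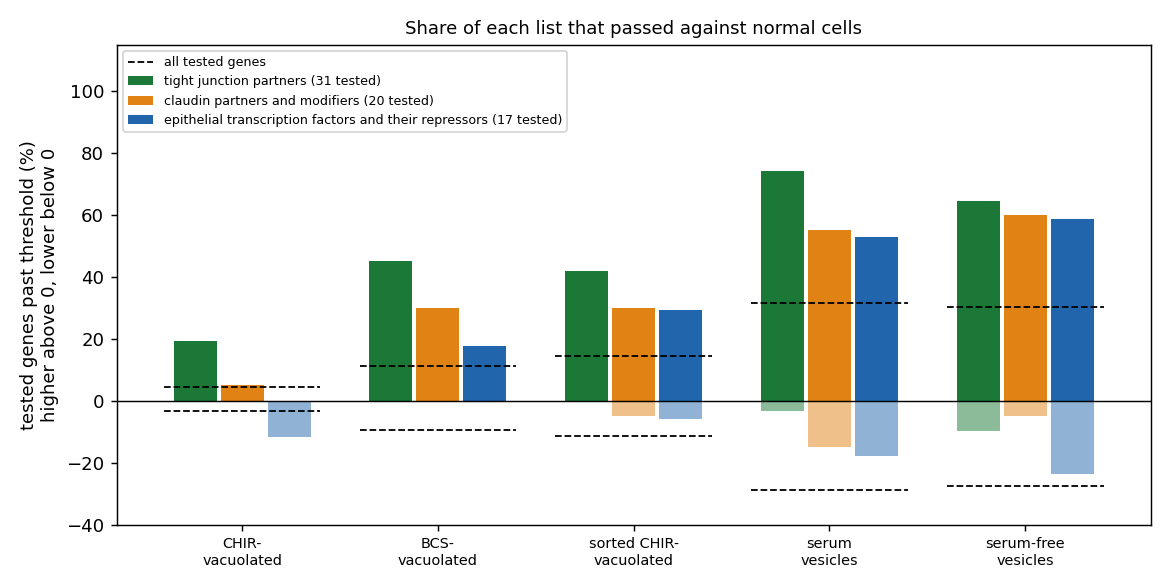
Share of the tested genes of 3 lists that passed an adjusted p under 0.05 against normal cells, in percent, higher above 0 and lower below 0, for each of the 5 groups. Dashed lines give the share over all tested genes. In the vesicles of both media the upward bars of the 3 lists stand above the upper dashed line, as they do with BCS and in sorted cells. With BCS the bar of the transcription factors and their repressors rests on 3 of 17 genes, little above the 11.2% of all genes. With CHIR99021, tight junction partners stand above it, claudin partners lie at it with 1 of 20 genes, and the transcription factors have no gene above 0.

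A list of 24 proteins that bind, cleave or move claudins had 20 tested genes. Against normal cells, 1 was higher and 0 lower with CHIR99021, where 4.49% of all genes were higher, so that this share was at the background. The counts were 6 and 0 with BCS (all genes 11.2% and 9.51%) and 6 and 1 in sorted cells (14.4% and 11.5%). They were 11 and 3 in serum vesicles (31.7% and 28.8%) and 12 and 1 in serum-free vesicles (30.2% and 27.5%). The median log2 change was 0.07, 0.32, 0.26, 0.87 and 0.73. Prss8, a membrane protease, stood at 3.94 ± 0.420 CPM in normal cells, 43.4 ± 4.31 in serum and 73.0 ± 15.9 in serum-free vesicles. Micall2, which takes part in the return of claudins and occludin to the membrane, changed by log2 -1.57 and -1.75. CHIR99021 against BCS had 0 higher and 4 lower (all genes 5.83% and 7.4%), and serum-free against serum vesicles 5 higher and 2 lower (12.9% and 11.5%). Sorted against unsorted cells had 2 higher and 0 lower, near the 6.69% and 5.05% of all genes, and vesicles against vacuolated cells 12 higher and 3 lower (34.2% and 32.3%).

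Transcription factors of epithelia and their repressors made a list of 27, with 17 tested. Against normal cells, 0 were higher and 2 lower with CHIR99021 (all genes 4.49% and 3.13%), 3 and 0 with BCS (11.2% and 9.51%) and 5 and 1 in sorted cells (14.4% and 11.5%). In serum vesicles 9 were higher and 3 lower (31.7% and 28.8%), and in serum-free vesicles 10 and 4 (30.2% and 27.5%). The median log2 change was 0.15, 0.15, 0.36, 0.71 and 0.87. Since the list pools the factors with their repressors, neither these counts nor the medians describe the factors alone. Cdx2, a factor of gut and trophectoderm, had 0 counts in normal cells and stood at 25.0 ± 5.79 CPM in serum and 22.2 ± 4.44 CPM in serum-free vesicles. No vacuolated library held more than 0.230 CPM, so Cdx2 entered the test through the vesicles and had to differ. Any list gene high in the vesicles alone enters in the same way, so the list counts are a description and support nothing. Hnf4a, a factor of visceral endoderm, liver and gut, rose 4.91-fold (adjusted p = 1.25e-09) and 7.63-fold (adjusted p = 1.68e-11), and the endoderm factor Gata6 changed by log2 -2.52 and -2.33. Snai1, a repressor known to bind the E-box above, rose with BCS (2.37-fold, adjusted p = 0.00791) and in sorted cells (2.49-fold, adjusted p = 0.00355). It stood at 4.40 ± 1.24 CPM in normal cells, 4.49 ± 2.10 in serum and 3.28 ± 0.530 in serum-free vesicles. Its part in the claudin levels was not tested. Zeb1, another repressor of this kind, stood at 1.93 ± 0.678 CPM in serum and at 0.0793 ± 0.0687 CPM in serum-free vesicles (adjusted p = 3.00e-04). CHIR99021 against BCS had 0 higher and 4 lower (all genes 5.83% and 7.4%). Serum-free against serum vesicles had 2 higher and 1 lower, not above the 12.9% and 11.5% of all genes. Sorted against unsorted cells had 3 higher and 0 lower (6.69% and 5.05%), and vesicles against vacuolated cells 11 higher and 5 lower (34.2% and 32.3%).

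Some markers of other cell types were also higher in the vesicles, and their part in the claudin changes was not tested. The 7 visceral endoderm markers summed to 1.51 to 2.87 CPM in normal cells. Their sum was 46.8 to 73.5 CPM in serum vesicles and 24.7 to 144 CPM in serum-free vesicles. The serum-free median was 37.3 CPM, below every serum library, so the value of 144 CPM came from 1 library. In serum vesicles Ttr had 0 counts, Afp a mean of 0.686 CPM and Cited1 a mean of 39.5 CPM. In serum-free vesicles the means were 0.121 CPM for Ttr, 10.6 for Afp, 14.1 for Apoa1 and 26.2 for Cited1. Cubn and Amn, which were listed with the extraembryonic endoderm markers, went the other way. They had means of 344 and 57.5 CPM in normal cells, 8.46 and 8.62 in serum and 32.7 and 2.40 in serum-free vesicles. The 8 trophoblast markers summed to 8.93 to 10.9 CPM in normal cells, to 22.4 to 36.4 CPM in serum vesicles and to 22.4 to 31.2 CPM in serum-free vesicles, with 3 markers at 0 in serum and 2 at 0 in serum-free vesicles. The list did not move one way: Cdx2 made up most of the vesicle sum, while Eomes stood at a mean of 8.25 CPM in normal cells and at 0.854 and 0.969 CPM in the vesicles. The 6 pluripotency markers summed to 104 to 135 CPM in normal cells and to 0.377 to 3.96 CPM in the vesicles. Pou5f1 made up nearly all of the normal sum, with a mean of 118 CPM there and of 1.25 and 0.746 CPM in the vesicles. Nanog and Sox2 had 0 counts in normal cells. Fibroblast markers (10, with 5 at 0 in serum and 6 in serum-free vesicles) summed to at most 15.9 CPM in any library, and blood markers (4) to at most 5.71 CPM. Endothelial markers (4) summed to 8.66 to 23.1 CPM in the vesicles, against 56.0 to 58.9 CPM in normal cells. Tek made up most of the endothelial sum, at means of 54.0 CPM in normal cells, 15.4 in serum and 12.2 in serum-free vesicles. When the pair of most abundant genes was left out of the libraries, each claudin call was kept.

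Likeness of pattern was measured as the root mean square difference from a claudin in centred log2 CPM over the 18 libraries, among 7006 tested genes of at least moderate level, as a description without a test. Krt18 and Krt8, the keratins of simple epithelia, were nearest to Cldn6, at 0.41 and 0.43 log2 units, where Cldn6 itself had an SD of 1.26. Cldn7 (SD 2.07) was nearest to Ypel5 at 0.62 and to Sdc4, a heparan sulfate proteoglycan, at 0.64. Cldn4 (SD 3.06) and Cldn23 (SD 2.84) had the same nearest row, named Mir675, at 0.89 and 0.67. Since the libraries hold fragments of total RNA, that row cannot be read as the mature microRNA. Next came Add3, a protein of the membrane skeleton, at 1.17 for Cldn4, and Txnip at 1.04 for Cldn23. Cldn12 (SD 0.17) was nearest to Morc3 and Fbxl6, both at 0.14, and Cldn3 was too low on average for this measure. The points share their libraries and depth, so genes that follow the difference between vesicles and other cultures lie close to each other.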

How the data were processed

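Total RNA depleted of ribosomal RNA was sequenced with a directional kit in 18 libraries, 3 for each of 6 groups. The deposited files hold raw counts per gene in 3 columns (unstranded and 1 for each strand). Per the submitters' processing notes, the authors used bcl2fastq, Trimmomatic 0.38 and STAR 2.6.1 with build rn6; the counter and the annotation are not given in the sources used here. The strand with nearly all counts was used; the other held 1.70 to 2.85%.

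The analysis ran in edgeR 4.0.16 under R 4.3.3, beside limma 3.58.1. The edgeR filter (minimum count 10, by group) left 11503 genes, and TMM gave the scaling. A group-means model over 18 libraries (12 residual degrees of freedom, common biological coefficient of variation 16.1%) was fitted with robust quasi-likelihood, and 9 comparisons were tested with Benjamini-Hochberg adjustment over all genes, threshold 0.05. The code was tested on simulated data. DESeq2 1.42.0, other scalings, other count columns and left-out libraries were alternatives. Intervals and floors cover counting error or library spread as named, at 95%, and log2 CPM used a prior count of 2.

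Members are described throughout. Up to 2 genes per list, comparison and direction with the smallest adjusted p serve as examples, from which a selection is printed. A list member picked by this rule is not reported here. Members and lists were chosen with earlier results of these data known. Promoter windows are RefSeq sequences of GRCr8, matched by symbol. Without transcript lengths, levels were not compared between genes.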

Additional observations from a re-analysis of the deposited data

Results flagged for a closer look

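Several claudins differed between 2 groups of a like morphology, by a direct test of the difference (edgeR). Cldn23 had a log2 difference of 1.54 and Cldn3 one of -2.08 between serum-free and serum vesicles. Cldn7 differed by 2.20 between sorted and unsorted CHIR99021 cells. Between unsorted CHIR99021 and BCS cells, the log2 differences were -1.83 for Cldn23, -1.61 for Cldn4 and -1.48 for Cldn7, and each of these 3 was lost without at least 1 library. Counts at Cldn9 on the strand not used were 16 each in unsorted CHIR99021 cells, BCS cells and serum vesicles, against 3 in normal cells, with ratios of 4.58 (95% counting interval 1.31 to 24.5), 4.09 (1.17 to 21.9) and 5.13 (1.47 to 27.4) after scaling. All 3 normal counts were in replicate 1, so that 0 were left without it, and without 1 library the group counts were 5 in unsorted CHIR99021 cells (without replicate 3), 8 in BCS cells (without replicate 3) and 5 in serum vesicles (without replicate 2). The same strand held 16 counts in sorted cells (ratio 3.06, 0.876 to 16.4) and 8 in serum-free vesicles.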

How the results depend on the processing

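The 29 claudin changes that passed gave 228 values under other scalings, count columns, filters, covariates, group subsets and DESeq2. Each of these 228 kept direction and call. A change gave no value in a setting where its gene was not tested. With the compared groups alone, Cldn23 with BCS and Cldn4 in sorted cells, each against normal cells, gave none. The claudins higher than in normal cells then numbered 3 with BCS and 2 in sorted cells. Leaving out a library in turn kept 201 of 219 values of the 29 changes and lost the call in 18, all given in the report. Of the 22 that did not pass, 14 values without a library and 3 under other settings changed sign. These 3 were Cldn12 in unsorted CHIR99021 cells with DESeq2 size factors (log2 -0.0020) and with DESeq2 (-0.0015), and Cldn4 between vesicle media with passage as a covariate (-0.028). Without 1 library, Cldn7 ranged from -0.35 to 0.27 and Cldn12 from -0.084 to 0.11 with CHIR99021, Cldn12 from -0.027 to 0.19 with BCS, from -0.059 to 0.14 in serum-free vesicles and from -0.11 to 0.032 for CHIR99021 against BCS, and Cldn4 from -0.15 to 0.21 between vesicle media. Claudins higher with CHIR99021 numbered 2 without the filter and 1 to 2 without a library, those lower in serum-free than in serum vesicles 1 to 2, those lower with CHIR99021 than with BCS 0 to 2, and those higher after the sort 2 with the compared groups alone. The genes past the threshold with only the groups compared numbered 1856 with CHIR99021 (876 with all groups), 1223 between vesicle media (2806) and 2576 between sorted and unsorted cells (1350). Without 1 library they numbered 504 to 638 with CHIR99021, 1275 to 2606 with BCS, 1982 to 2471 in sorted cells, 1725 to 3004 between vesicle media, 690 to 954 between sorted and unsorted cells and 748 to 1947 for CHIR99021 against BCS; the cause was not tested beyond the fewer samples. Same-numbered libraries did not deviate together (correlations -0.149 to 0.0869), and the replicate block changed no claudin call (832 genes past the threshold with CHIR99021, 2281 with BCS). Without the low-count filter, Cldn2 passed in 3 of 9 comparisons (3 of 5 with DESeq2), Cldn9 in 1 and Cldn1 in 0.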
